A study of Mus musculus with 3 samples.

Results

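The G1 cyclins and the inhibitors of their kinases were measured in LPS-stimulated mouse macrophages as 10 genes, *Ccnd1*, *Ccnd2*, *Ccnd3*, *Ccne1*, *Ccne2*, *Cdk4*, *Cdk6*, *Cdkn1a*, *Cdkn1b* and *Cdkn2c*. They were taken by their symbols from the 26840 genes with a symbol on the arrays, and 23 probes of 60 bases targeted them, 21 of which were well above background on all 3 arrays. No gene was left out. The cells of all groups were RAW 264.7, a transformed mouse macrophage line that divides in culture. In the LPS group the macrophages received 50 ng/mL LPS alone, the agonist of TLR4. In the CRL1505 and CRL1506 groups they were first kept for 24 h with 50000000 cells/mL of *L. rhamnosus* CRL1505 or of the *L. plantarum* strain CRL1506, washed, and then given the same LPS. The series design gives 12 h of LPS and the sample descriptions give 3 h, so the length of the challenge is not settled. Each group was 1 array, and unstimulated macrophages are not analysed here. No difference below therefore has a replicate check, no p-value is given, and the values describe these 3 arrays.

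Passage through G1 is driven by cyclin D bound to CDK4 or CDK6 and then by cyclin E bound to CDK2. Both kinases phosphorylate the retinoblastoma protein, which releases E2F factors to transcribe genes of DNA synthesis and also *Ccne1*. The INK4 inhibitors, such as p18 from *Cdkn2c*, bind CDK4 and CDK6, whereas the CIP/KIP inhibitors p21 (*Cdkn1a*) and p27 (*Cdkn1b*) bind cyclin-CDK complexes and restrain CDK2. Macrophages stimulated with LPS are known to slow their division, and p21 is a classical p53 target.

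Promoters of 7 of the 10 genes were matched in the RefSeq promoter table used here (GRCm38.p6), and those of *Ccnd1*, *Ccnd2* and *Ccne2* are not analysed here. Those of *Cdkn2c*, with the widest range over the arrays, and of *Ccne1*, with the largest difference between the strains, are shown first, as 250 bases before the transcription start, 5′ to 3′ on the gene's strand. The *Cdk4* promoter is shown because of its E-boxes, set in capitals. *Ccne1* lies at chr7:38107491-38107740 on the minus strand, *Cdkn2c* (1 of its 2 windows) at chr4:109666757-109667006 on the minus strand, and *Cdk4* at chr10:127063285-127063534 on the plus strand.
Ccne1 promoter: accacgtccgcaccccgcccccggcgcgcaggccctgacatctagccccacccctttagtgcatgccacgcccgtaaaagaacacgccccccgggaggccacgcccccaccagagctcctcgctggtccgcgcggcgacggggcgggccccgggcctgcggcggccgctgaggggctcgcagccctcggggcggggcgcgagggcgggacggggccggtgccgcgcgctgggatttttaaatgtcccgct
Cdkn2c promoter: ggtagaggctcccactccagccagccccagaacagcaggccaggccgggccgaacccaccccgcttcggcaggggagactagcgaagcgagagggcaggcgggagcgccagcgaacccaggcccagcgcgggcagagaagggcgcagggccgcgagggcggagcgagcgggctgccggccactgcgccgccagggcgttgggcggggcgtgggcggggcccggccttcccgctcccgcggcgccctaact
Cdk4 promoter: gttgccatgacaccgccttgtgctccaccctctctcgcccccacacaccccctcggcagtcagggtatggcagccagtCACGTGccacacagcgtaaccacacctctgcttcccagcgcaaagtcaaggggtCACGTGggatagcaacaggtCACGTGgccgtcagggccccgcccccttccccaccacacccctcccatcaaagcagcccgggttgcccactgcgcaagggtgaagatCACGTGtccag

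The search covered 4 E2F octamers, TTTGGCGC, TTTGCCGC, TTTCGCGC and TTTCCCGC, on both strands. None of the 10 windows of these genes held one, against 611 of 32851 promoter windows, or 1.86%. At so low a share, 10 windows are too few to tell these genes from others. Other E2F sequences were not searched, so no conclusion on E2F sites is drawn. The E-box CACGTG, a palindrome bound by Myc and Max and chosen after the sequences were seen, stood 172, 118, 98 and 11 bases before the *Cdk4* start. It occurred once in the *Cdk6* window, 220 bases before the start. At least 1 E-box was present in 6.02% of all windows and at least 4 in 0.0213%, or 7 windows. GC made up 76% of the *Ccne1* window, 77.2% of the *Cdkn2c* window shown and 42.8% of the other *Cdkn2c* window. These matches are letters in a window and were not tested for binding.

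Signals were the scanner's processed intensities, and levels were their log2 minus the log2 of the 75th percentile of that array, which was 743.1 for LPS, 517.0 for CRL1505 and 697.9 for CRL1506. Of 59305 gene spots, 54.5%, 48.5% and 55.3% were well above background in the same order. The LPS and CRL1506 arrays shared a slide and a scan, and the CRL1505 array came from another, so strain and slide cannot be told apart in any comparison with CRL1505. A gene was represented by its brightest probe, and differences are log2 ratios of levels. Probes of the same gene had a median SD of the log2 ratio of 0.228 for CRL1505 over LPS, 0.215 for CRL1506 over LPS and 0.323 between the strains, against 0.0475, 0.0432 and 0.0468 for repeated spots of one probe. A 2-fold difference was the threshold. Probe coordinates are those of the files in mm9, and whether a probe lies in coding sequence or a UTR is not given in the sources used here. RAW macrophage identity was checked with 11 macrophage markers, of which 11, 10 and 10 were well above background on the LPS, CRL1505 and CRL1506 arrays, with *Cd68* at 58633, 50842 and 56423. The fibroblast list reached that mark for 0, 1 and 3 of 6 genes and the T cell list for 4 of 6 on each array. None of the arrays had *Cd3g*, *Cd8a* or *Cd79a* well above background, while *Cd3e*, *Cd4* and *Lck* of T cells and *Ms4a1* and *Pax5* of B cells were above it on each, and *Cd79b* was on the LPS and CRL1506 arrays. Fewer cells in cycle and less RNA per cell cannot be told apart in these bulk samples.

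Against LPS alone, CRL1505 left 9 of the 10 genes comparable, and 2 of them, *Cdkn2c* and *Ccne1*, were at least 2-fold lower, whereas none was at least 2-fold higher. Over all 15603 genes compared, 8.41% were lower and 9.93% higher by this rule, 18.3% in all. The median log2 ratio of the 9 genes was -0.54, against 0.01 over all genes. Of the 9, 8 were below 0, *Cdkn1b* among them by less than the probe spread. With CRL1506 all 10 genes could be compared, 1 was at least 2-fold lower (*Cdkn2c*) and none higher, where 3.53% of 16279 genes were lower and 5.67% higher, 9.2% in all. Their median was -0.44, against -0.06 over all genes. Over 7 other scalings of the arrays, 2 to 6 of the genes were at least 2-fold lower with CRL1505 and 1 to 3 with CRL1506, the 6 after spike-in scaling and the 3 after a median shift. Between 7 and 9 of the genes were below 0 with CRL1505 over these scalings, where 9 or 10 could be compared. Each comparison used the same LPS array, and the 10 genes were chosen with earlier results of these data known.

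The plot of levels by probe shows each gene on the 3 arrays.

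**Figure D1:**
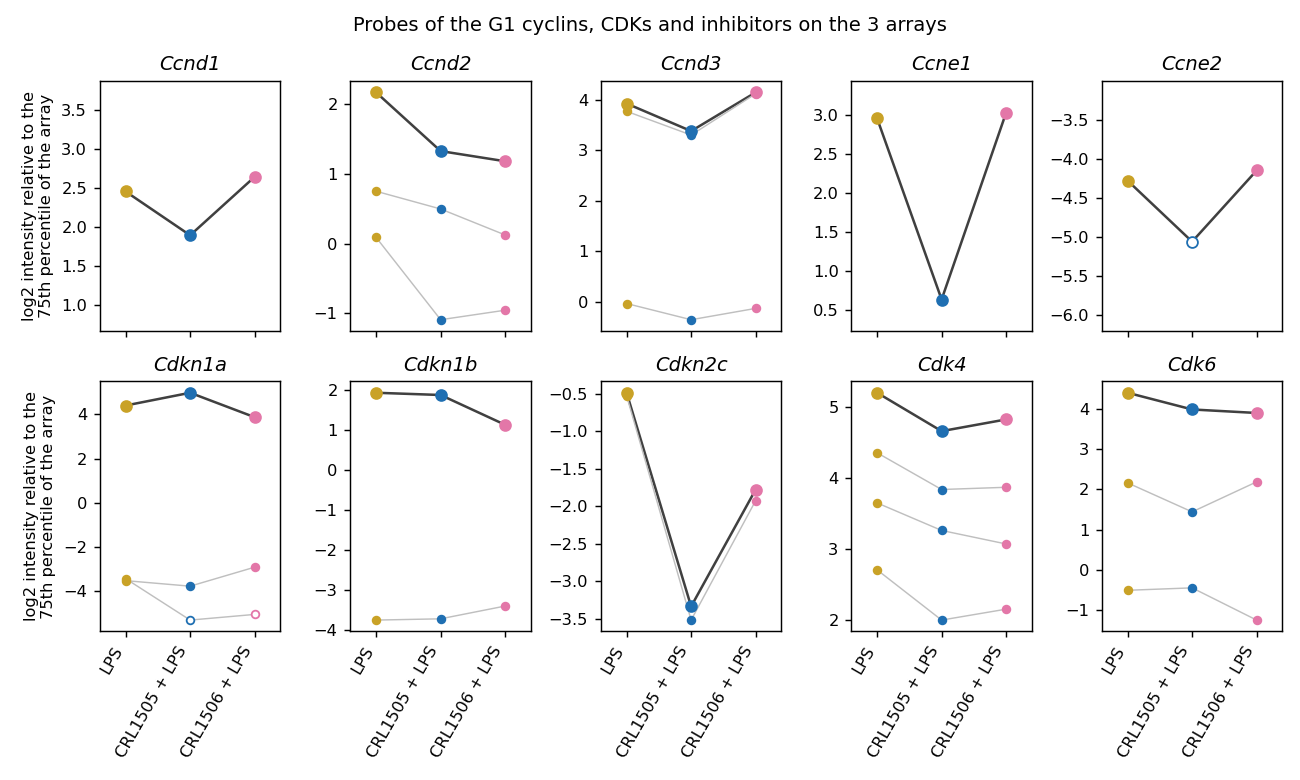
Level of every probe of the 10 genes (log2 signal over the 75th percentile of the array) on the LPS, CRL1505 and CRL1506 arrays, 1 array each. Each line joins 1 probe, the dark line is the brightest probe of the gene, and filled points are well above background. *Cdkn2c* fell on both probes and *Ccne1* only on the CRL1505 array.

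*Cdkn2c*, which encodes the CDK4 and CDK6 inhibitor p18, had the widest range over the arrays of the 10 genes. Its probe at chr4:109333779-109333838 (mm9) gave signals of 530 with LPS, 51.2 with CRL1505 and 203.5 with CRL1506. The level was 7.21-fold lower with CRL1505 than with LPS (log2 ratio -2.85) and 2.45-fold lower with CRL1506 (-1.29). All 3 arrays were apart by more than the probe spread, in the order LPS, CRL1506, CRL1505. The second probe, which shares 40 bases with the first, gave 516, 45.1 and 184, with ratios of -2.99 and -1.40, so both probes pass 2-fold in both comparisons. Of all genes compared, 0.372% had a lower ratio with CRL1505 and 2.19% with CRL1506. With the 7 other scalings the *Cdkn2c* ratio to LPS ran from -3.35 to -1.87 (CRL1505) and from -1.49 to -1.14 (CRL1506), past 2-fold in each. The CRL1505 signal was close to the lowest one well above background on that array, 29.6. With CRL1505 the ratio was -1.87 after normexp and quantile normalization and -1.92 in the deposited log2 values, so its size depends on the processing.

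*Ccne1*, the gene of cyclin E1, gave signals of 5758 with LPS, 803 with CRL1505 and 5692 with CRL1506. CRL1505 lay 4.99-fold below LPS (log2 ratio -2.32), whereas CRL1506 differed from LPS by 0.07, which is less than the probe spread. Only 0.936% of genes had a lower ratio with CRL1505. The CRL1505 ratio ran from -2.82 to -2.02 over the other scalings, past 2-fold in 7 of 7. A single probe measured the gene, and only 24 of its 60 bases have a coordinate in the file, chr7:38882937-38882960 (mm9, minus strand). Cyclin E2 is encoded by *Ccne2* (probe at chr4:11122185-11122244), and its signals were 38.3, 15.5 and 39.4 in the same order. The CRL1505 value was not well above background. The lowest level well above background on that array, -4.12, exceeded the *Ccne2* levels with LPS (-4.28) and CRL1506 (-4.15), so no bound could be given. *Ccne2* was therefore compared only between CRL1506 and LPS, where the log2 ratio was 0.13. Both of those signals were close to the lowest well above background on their arrays, 33.1 for CRL1506 and 33.3 for LPS.

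The D cyclins, which respond to growth signals, did not pass 2-fold in either comparison with LPS, and *Ccnd2* came nearest. *Ccnd1* (probe at chr7:152116202-152116261) gave signals of 4062, 1917 and 4345 on the LPS, CRL1505 and CRL1506 arrays. Its log2 ratio to LPS was -0.56 with CRL1505 and 0.19 with CRL1506, the latter within the probe spread. *Ccnd3* (chr17:47736579-47736638) gave 11263, 5373 and 12319.5, ratios of -0.54 and 0.22. For both genes CRL1505 was the lowest array. The 3 *Ccnd3* probes ranged from -0.54 to -0.32 with CRL1505 and from -0.10 to 0.35 with CRL1506, and the brightest overlaps another by 53 bases in mm9. *Ccnd2* (chr6:127080268-127080327) was lower with both strains, with signals of 3345, 1297 and 1583 and ratios of -0.84 and -0.99, the latter a 1.99-fold lower level, past 2-fold in 2 of the 7 other scalings.

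The 3 *Ccnd2* probes were all lower with both strains but by unequal amounts, so the sequence of the probe farthest toward the 5′ end is shown. It starts at base 609 of the transcript, has 2 reading frames without a stop codon and lies at chr6:127098696-127098755 (mm9, minus strand).
Ccnd2 probe: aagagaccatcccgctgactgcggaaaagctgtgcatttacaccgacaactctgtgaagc
That probe gave 790, 242 and 359 with LPS, CRL1505 and CRL1506, log2 ratios of -1.18 and -1.05, past 2-fold with both strains. At the 3′ end, the probe at base 6038 gave 1250, 729 and 760 and ratios of -0.25 and -0.63. The spread between the 3 *Ccnd2* probes was 0.47 (SD) for CRL1505 and 0.23 for CRL1506.

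CDK4 and CDK6 are the kinases that the D cyclins activate. The brightest *Cdk4* probe (chr10:126504279-126504338) gave 27199, 13021.5 and 19704 with LPS, CRL1505 and CRL1506, log2 ratios of -0.54 and -0.37. All 4 *Cdk4* probes were lower than LPS on both other arrays, with ratios from -0.71 to -0.39 (CRL1505) and from -0.58 to -0.37 (CRL1506). The brightest overlaps another of them by 53 bases in mm9, so the 4 are not all separate measurements. Neither strain moved the gene past 2-fold. *Cdk6* (chr5:3529287-3529346) gave 15655.5, 8171 and 10384.5, ratios of -0.41 and -0.50, but its 3 probes spanned -0.72 to 0.06 for CRL1505 and -0.74 to 0.03 for CRL1506. For *Cdk6* the probes thus did not agree on a direction.

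*Cdkn1a*, the gene of p21, was probed at chr17:29237377-29237436 and gave 15710.5 with LPS, 16300 with CRL1505 and 10232 with CRL1506. Its log2 ratio was 0.58 with CRL1505, higher than for 80.7% of genes, and -0.53 with CRL1506. On this probe the strains lay on opposite sides of LPS, each by less than 2-fold. A second probe gave weak signals of 65.0, 38.0 and 93.1 and ratios of -0.25 and 0.61, opposite in sign to the first. The SD between these *Cdkn1a* probes, 0.58 and 0.80, exceeded either ratio, and the mean over probes gave 0.16 with CRL1505 and 0.04 with CRL1506, so no direction is drawn for the gene. The third, for a variant starting upstream, read 69.2, 13.1 and 21.2, where both lactobacilli arrays were dim and the log2 ratios to LPS were at most -0.70 and -0.98. *Cdkn1b*, which encodes p27, was probed at chr6:134875424-134875483 and gave 2844, 1903 and 1534, with ratios of -0.06 and -0.80. On this probe CRL1505 and LPS were within the median probe spread over all genes, and CRL1506 was lower by more than that median. A weaker *Cdkn1b* probe, at 55.5, 39.5 and 66.5, gave 0.03 and 0.35, so the lower CRL1506 value was not seen on it. The mean over probes was -0.22 with CRL1506. The SD between the *Cdkn1b* probes with CRL1506, 0.81, exceeded the size of the ratio, so no direction is drawn for the gene.

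Comparing the strains directly, CRL1505 over CRL1506, 9 genes could be compared. *Cdkn1a* was at least 2-fold higher, *Ccne1* and *Cdkn2c* at least 2-fold lower, and the median of the 9 was -0.16, against 0.03 over all genes. In this comparison 9.02% of 15780 genes were higher and 7.47% lower, 16.5% in all. *Ccne1* was 5.25-fold lower with CRL1505 (log2 ratio -2.39), 0.545% of genes had a lower ratio, and it stayed past 2-fold in each of the 7 other scalings. *Cdkn2c* was 2.95-fold lower, past 2-fold in 5 of 7. *Cdkn1a* was 2.15-fold higher (1.10) but passed 2-fold in 1 of 7, with a range from 0.73 to 1.60, and its second probe went the other way (-0.86). With the mean over probes the *Cdkn1a* ratio between strains was 0.12, and 2 genes, both lower, were past 2-fold. The plot of ratios shows the ranges for the comparisons with LPS.

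**Figure D2:**
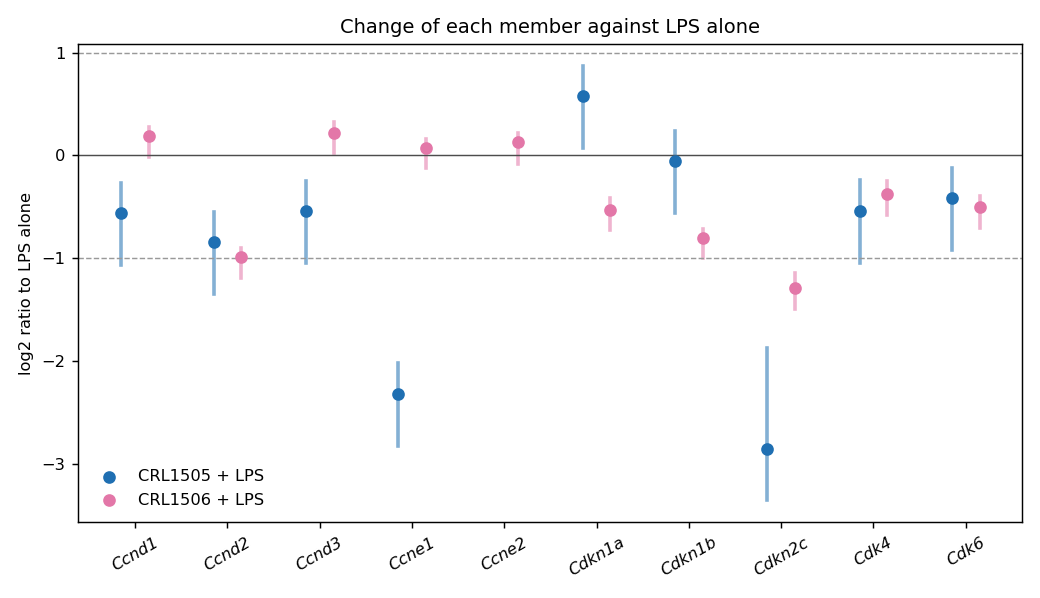
Log2 ratio to LPS of the 10 genes for CRL1505 and CRL1506, 1 array each, without a CRL1505 value for *Ccne2*. Points are the ratios reported in the text, bars span 7 other scalings of the arrays and dashed lines mark 2-fold. *Cdkn2c* is past the line in both comparisons with LPS and *Ccne1* with CRL1505.

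Relative to the array scaling, several small values changed sign over the 7 scalings. *Ccne1*, *Ccne2* and *Ccnd1* with CRL1506 crossed 0 (*Ccne1* from -0.13 to 0.16), as did *Cdkn1b* with CRL1505, from -0.56 to 0.24. No direction is drawn for them. The other scalings moved the median of all genes, at the extremes to 0.33 with CRL1505 after a median shift and to -0.48 after spike-in scaling. Relative to that median, the median of the genes compared with CRL1505, 9 or 10 depending on the scaling, ran from -0.68 to -0.56.

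The genes around this step were grouped in 7 lists of 119 other genes in all, counted once. These lists were chosen with earlier results of these data known. Their counts are therefore set beside the share of all genes as description only. With CRL1505, 37 of 114 comparable genes were at least 2-fold lower and 6 higher, against 8.41% and 9.93% of all genes. With CRL1506 3 of 113 were lower and 2 higher, against 3.53% and 5.67% of all genes. The scalings gave 25 to 58 lower and 4 to 14 higher with CRL1505, and 2 to 10 lower and 2 higher with CRL1506. The S phase genes driven by E2F had the lowest median of the 7 lists with CRL1505, where 16 of 24 were at least 2-fold lower, none higher (median -1.29), and none past 2-fold with CRL1506 (median -0.29). *Tk1*, which salvages thymidine, was 8.21-fold lower with CRL1505, *Rrm2* of ribonucleotide reductase 6.51-fold, *Mcm7* of the replicative helicase 4.12-fold and *Uhrf1*, which guides maintenance methylation, 3.31-fold, and 12 others also passed. Over the 7 scalings 11 to 22 of these genes were lower with CRL1505, and their median minus that of all genes ran from -1.39 to -1.30. *Tk1* signals were 10422 with LPS, 883 with CRL1505 and 6550 with CRL1506. The CRL1506 array thus lay nearer to LPS than to CRL1505 for *Tk1*.

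For the counts that follow, 8.41% of all genes were at least 2-fold lower with CRL1505 and 3.53% with CRL1506. Mitosis genes were also lower, with 7 of 10 at least 2-fold lower with CRL1505 (median -1.14), none with CRL1506 (-0.48) and all 10 below 0 in both. *Plk1* was 3.12-fold lower with CRL1505, *Aurka* 2.66-fold, *Aurkb* 2.35-fold and *Mki67* 2.29-fold. The count of mitosis genes with CRL1505 ran from 2 to 9 over the scalings. Among RB and E2F genes, 6 of 16 were lower with CRL1505. They were led by the atypical E2F repressors *E2f7* (6.97-fold) and *E2f8* (5.15-fold) and the activators *E2f1* (4.16-fold) and *E2f2* (4.12-fold), with none past 2-fold for CRL1506. The medians of that list were -0.61 and -0.46, and 5 to 9 of its genes were lower with CRL1505 over the scalings. Of 17 other cyclins, CDKs and inhibitors compared, 4 were lower with CRL1505 and none with CRL1506, namely the CDK subunit *Cks2* (3.70-fold), *Ccna2* of S phase (2.69-fold), *Cdk1* (2.16-fold) and *Ccnb1* of mitosis (2.03-fold). Over the scalings 2 to 7 of that list passed and its median ran from -0.78 to 0.02, so no direction is drawn for it. The genes for turnover and phosphorylation had 3 of 13 lower, *Fbxo5* (an inhibitor of the anaphase-promoting complex, 6.83-fold), *Fbxo31*, part of a ubiquitin ligase for cyclin D1 (2.51-fold), and *Wee1*, a kinase that restrains CDK1 (2.30-fold). Over the scalings 2 to 6 genes of this list were lower with CRL1505. Its median crossed 0 too, from -0.78 to 0.02, so no direction is drawn for it either.

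Regulators of transcription were mixed. Of all genes, 9.93% were at least 2-fold higher and 8.41% lower with CRL1505, and 5.67% and 3.53% with CRL1506. With CRL1505, 5 of 22 were at least 2-fold higher, led by *Mxd1*, a Max partner that opposes Myc (6.10-fold), the immediate early genes *Egr1* (5.50-fold) and *Fos* (3.38-fold) and *Max* (2.55-fold), and 1 lower, *Cebpa*, a myeloid factor that restrains division (4.97-fold). With CRL1506, *Egr1* was 2.73-fold higher, and *Mxd4* and *Cebpa* were 2.64-fold and 2.16-fold lower. For p53 targets, of which 17 and 16 could be compared, the sestrin gene *Sesn1* was 5.04-fold lower with CRL1505 and 2.39-fold with CRL1506. *Phlda3* (2.87-fold) and *Pmaip1* (2.43-fold) were lower with CRL1505, *Tnfrsf10b* at least 5.26-fold higher, and *Plk2* 2.56-fold higher with CRL1506. Both lists had medians near 0 with CRL1505, 0.20 for the regulators and -0.10 for the p53 targets, and both crossed 0 over the scalings. With CRL1505 the scalings gave 3 to 6 regulators higher and 1 to 5 lower, and 1 to 4 p53 targets higher and 2 to 3 lower. The summed signal of the 11 macrophage markers was 572279, 394630 and 435136 on the LPS, CRL1505 and CRL1506 arrays. Single markers moved as well, *Csf1r* with signals of 120050, 30195.5 and 61675 and *Adgre1* with 4544, 15264 and 8555 in the same order, and their part in the cell cycle values was not tested.

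**Figure D3:**
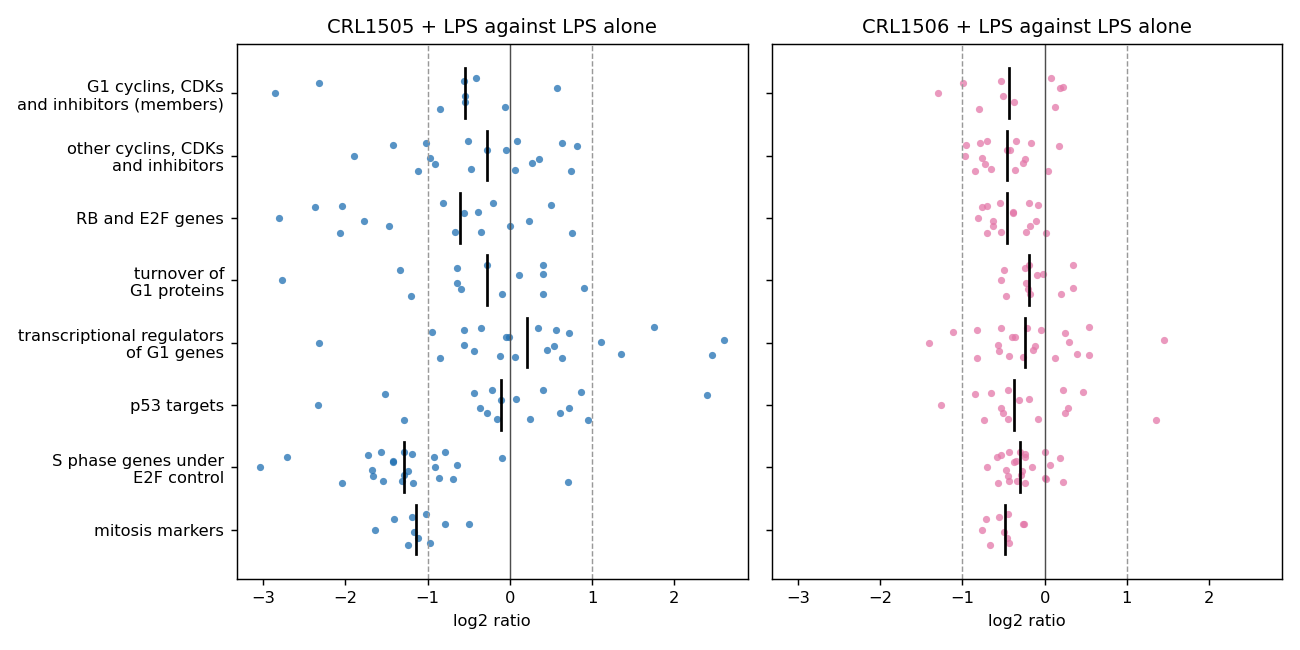
Log2 ratio to LPS of the genes of each cell cycle list for CRL1505 and CRL1506, 1 array each. Points are genes, black bars are medians and dashed lines mark 2-fold. S phase genes had a median of -1.29 with CRL1505 and -0.29 with CRL1506.

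The genes nearest to *Cdkn2c* in the pair of log2 ratios, among 13123 genes well above background on all 3 arrays, were *Neurl1b*, *Myh14*, *Igfbp4*, *Gas6* and *Fhod1*, at distances from 0.144 to 0.230. *Gas6* had ratios of -2.68 and -1.40. Those nearest to *Ccne1* were *Tcf19*, *Clspn*, *Kcnj2*, *Cd1d1* and *AI504432*, at 0.0769 to 0.269. For *Clspn* the ratios were -2.24 and 0.03. Likeness was measured over these 2 ratios of 3 arrays and says nothing of shared control.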

How the data were processed

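RNA of LPS-stimulated RAW 264.7 macrophages was hybridized to 1-colour Agilent mouse arrays of 60-base probes, 1 array for each of 3 groups. The authors deposited processed intensity values from Feature Extraction (12.0.3.1 in the file headers; the submitters' design text names another version) and a log2 table whose columns share 1 median (6.86). The log2 table was used as an alternative here; its values differed from normexp and quantile values by a median of 0.0534 to 0.0577. Levels were log2 intensity minus the 75th percentile of each array's gene spots, without outlier spots and with repeated spots averaged. The brightest probe stood for a gene, and a probe not well above background on 1 array gave a bound from that array's lowest signal well above background. Where that signal, once scaled, exceeded the level on the other array, the probe was not compared. No test was run, since each group has 1 array, and 2-fold was the threshold. Beside 1.5-fold and 4-fold thresholds, 12 other settings were tried, covering scaling, background correction, the filters and the choice of probe. Named genes were all members with their probes, the up to 4 largest of each list past 2-fold in each direction and strain, and 5 genes most like *Cdkn2c* and *Ccne1*. Members and lists were chosen with earlier results of these data known. Python 3.11.15, pandas 2.3.3, NumPy 2.4.6, R 4.3.3 and limma 3.58.1 were used, and the calculations were tested on simulated data. Probe coordinates are mm9, as in the files; promoters are GRCm38.p6.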

Additional observations from a re-analysis of the deposited data

Results flagged for a closer look

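By their brightest probes, 4 of the 10 genes and the 119 others lay on opposite sides of LPS with the 2 strains, each by more than 2 times the median spread between probes over all genes. The share of all genes that meet this rule is not given here, so the count is not read as a result about these genes. The difference was not tested, since each group is 1 array. *Cdkn1a* had a log2 ratio to LPS of 0.577 with CRL1505 and -0.528 with CRL1506, and its second probe had the opposite signs (-0.25 and 0.61). With the mean over probes *Cdkn1a* was at 0.16 and 0.04, so the opposite sides were lost. *Ccng2*, which encodes cyclin G2, had 0.811 and -0.972. For *Btg2*, an antiproliferative p53 target, the ratios were 0.721 and -0.524. *E2f5*, a repressive E2F, had 0.505 and -0.696, and over the other scalings its CRL1505 ratio went down to -0.0004, so its side of LPS was not kept.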

How the results depend on the processing

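Over the 12 other settings, 288 values of the 10 genes' log2 ratios moved by less than the probe spread and 47 by more. Of those, 18 came under the median shift and 18 under spike-in scaling. Each of these 2 scalings shifts all ratios of a comparison by the same amount, so the 18 values are not separate outcomes. No ratio past 2-fold changed sign. The counts past 2-fold moved most under 2 scalings. Spike-in scaling gave 6 of the 10 genes with CRL1505 over LPS, all lower, and 2 with CRL1506, while the median shift gave 3 with CRL1506 and 12 other cell cycle genes with CRL1506. A 1.5-fold threshold gave 3 of the genes with CRL1506 and 6 between strains, with 71 other cell cycle genes for CRL1505 and 25 for CRL1506. A 4-fold threshold gave 0 and 1, with 13 and 0 other genes. Among genes past 2-fold, 54.1% were higher with CRL1505 and 61.6% with CRL1506, and between 20.2% and 76.1% and between 43.4% and 69.7% over the other settings. No paired analysis was possible because each group has 1 array. With 1 array, no value can be set against the spread between cultures, and a signal not well above background gave only a bound or no comparison.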
